A study of Rattus norvegicus with 29 samples.

Results

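The voltage-gated ion channel genes were followed across the 5 groups of a rat fear-conditioning study of the basolateral amygdala. The set was taken by gene name, as every probe set annotated with a single symbol of the sodium channel (Scn), voltage-gated or large-conductance potassium channel (Kcna, Kcnab, Kcnb, Kcnc, Kcnd, Kcnh, Kcnq, Kcnma, Kcnmb), calcium channel (Cacna, Cacnb, Cacng) or hyperpolarization-activated channel (Hcn) series. It held 91 probe sets for 68 genes among 15866 non-control probe sets on the array. Of these, 12 probe sets (12 genes) belonged to sodium channels, 41 (29 genes) to potassium channels, 35 (24 genes) to calcium channels and 3 (3 genes) to HCN channels. The rule reads gene names alone.

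Total RNA of the basolateral amygdala, the part of the amygdala in which associations between a cue and a painful event are stored, was measured on 29 one-colour arrays. The baseline group held 9 arrays, with no time given. Groups of 5 arrays each came from rats taken 6 h after pain alone, after isoflurane alone (a volatile general anaesthetic that can block memory formation), after fear conditioning (FC in the plots) or after conditioning under isoflurane (IFC). The labels do not expand FC and IFC, which were read with the help of the series' design text. Strain, sex, age and doses are not given in the sources used here. Rat numbers are given for the pain and both conditioning groups only, so the p-values measure the spread between arrays, and separate animals are not stated for every array. The labels name the RNA labelling kit of 2 groups, baseline and isoflurane. A difference in kit between those and the other groups cannot be told apart from treatment in several tests. These are pain, conditioning or conditioning under isoflurane against baseline, conditioning under isoflurane minus isoflurane, and the F test. The isoflurane samples are also numbered apart from all other groups, and whether they were processed apart is not stated. Such a difference could not be told apart from isoflurane in isoflurane minus baseline, conditioning under isoflurane minus isoflurane, the interaction or the F test. Rats of the pain group are numbered 9 to 13 and those of both conditioning groups 22 to 32. Whether the pain rats were handled apart is not stated. A difference in handling could not be told apart from conditioning in conditioning minus pain, nor from treatment in the F test.

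Voltage-gated channels set the excitability of neurons. Sodium channels carry the rising phase of the action potential, potassium channels repolarise the membrane and limit repetitive firing, calcium channels couple depolarisation to transmitter release and to signalling in dendrites and nucleus, and HCN channels open on hyperpolarization and shape the resting potential. Each channel is a pore-forming subunit with auxiliary subunits that set its gating and its delivery to the membrane. In principal neurons of the amygdala, potassium currents after spikes restrain firing, and their reduction has been linked to learning. Several of these channels are also acted on by volatile anaesthetics.

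The promoter windows of Scn3a and Kcnd3 are printed because these genes had the lowest p-values of all channel probe sets after pain, and that of Cacng3 because it held 2 copies of a neuronal repressor motif. The letters are the 250 bases before the annotated start, 5′ to 3′ on the strand of the gene, from RefSeq (GRCr8). Capitals mark CG dinucleotides in the first pair of sequences and the motif TTCAGCACC in Cacng3.
Scn3a (chr3:70666199-70666448, minus strand): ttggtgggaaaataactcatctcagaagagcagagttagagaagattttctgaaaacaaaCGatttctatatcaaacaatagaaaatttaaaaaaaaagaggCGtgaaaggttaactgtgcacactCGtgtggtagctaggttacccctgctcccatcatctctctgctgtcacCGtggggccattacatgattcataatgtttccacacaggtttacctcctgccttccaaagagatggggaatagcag
Kcnd3 (chr2:195626066-195626315, plus strand): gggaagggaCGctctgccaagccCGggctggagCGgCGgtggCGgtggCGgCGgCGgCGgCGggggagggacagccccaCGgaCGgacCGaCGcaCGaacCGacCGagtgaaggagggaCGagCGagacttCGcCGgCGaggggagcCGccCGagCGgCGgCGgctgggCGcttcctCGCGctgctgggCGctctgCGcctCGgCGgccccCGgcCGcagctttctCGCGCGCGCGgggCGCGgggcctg
Cacng3 (chr1:186632312-186632561, plus strand): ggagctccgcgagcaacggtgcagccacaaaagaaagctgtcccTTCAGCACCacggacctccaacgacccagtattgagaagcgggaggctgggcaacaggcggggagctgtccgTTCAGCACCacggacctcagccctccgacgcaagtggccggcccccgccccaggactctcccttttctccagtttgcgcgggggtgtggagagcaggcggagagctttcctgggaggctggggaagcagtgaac
The printed 250 bases held 4 CG dinucleotides for Scn3a and 43 for Kcnd3. A window of 300 bases, 250 before to 50 after the start, was found for 49 of the 68 genes. Over 300 bases Scn3a held 7 CG dinucleotides and Kcnd3 48. Over those 49 windows the median was 19 CG dinucleotides, against 7 over all 27457 windows, and the median GC content was 63.0% against 52.3%. The 27 genes with a probe set above the signal filter described below had a median of 28 CG dinucleotides, and the 22 genes without one a median of 9.5.

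Motifs were counted on both strands of the same windows. TTCAGCACC, the left part of the RE1 element that binds the neuronal repressor REST, was found in 2 of 49 channel windows (4.08%) and in 0.379% of all windows. The 2 genes were Cacng3, with copies whose first base lies at -206 and -134 relative to the start, and Kcnh6, with a copy at -206. GGACAG, the right part of that element, occurred in 24.5% of channel windows and 21.8% of all. The GC box GGGCGG occurred in 53.1% against 34.9%, and TATAAA in 4.08% against 14.3%. The cyclic AMP response element TGACGTCA was found in 0 of 49 channel windows and in 1.91% of all. These matches describe the letters only.

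Deposited array medians ranged from 210.7 to 292.2 signal units, and pain replicate 3 was the array with the highest median, the next being 249.95. Correlations between arrays lay between 0.91 and 0.98. Markers of neurons (5 of 5 on the array), excitatory projection neurons (5 of 5) and GABAergic neurons (7 of 7) all passed the signal filter, as did 6 of 7 striatal markers (Adora2a did not), 8 of 8 oligodendrocyte and 7 of 7 astrocyte markers. The summed signal of the striatal markers ranged from 4875 to 16721 over all arrays. That sum is weighted towards Penk, with a mean log2 signal of 12.10 against 7.69 to 9.96 for the other striatal markers past the filter. As a mean of centred log2 signals over the 6 genes past the filter, the striatal score ran from -0.475 to 1.00. The source of this range was not tested. Of the choroid plexus and blood markers, 2 of 3 passed the filter and Alas2 did not. Their summed signal lay between 1607 and 2224 in the pain group and between 2439 and 18477 in baseline, with no overlap. As a mean of centred log2 signals over the 2 genes past the filter, the groups did overlap. That score ran from -0.67 to -0.33 after pain and from -0.65 to 2.87 in baseline. The part of these markers in the pain differences below was not tested. After conditioning, the summed astrocyte signal lay between 30038 and 37291 against 24008 to 30317 in baseline. The vascular markers (3 of 5 past the filter, Flt1 and Pecam1 below it) summed to 1032 to 1314 after conditioning, 1001 to 1314 after conditioning under isoflurane and 829.7 to 1072 in baseline. Both sums were shifted upward after conditioning with a narrow overlap. As means of centred log2 signals, which weigh the genes of a list equally, the overlap was wider. The astrocyte score ran from -0.02 to 0.48 after conditioning and from -0.31 to 0.15 in baseline. The vascular score ran from -0.13 to 0.31 and from -0.42 to 0.13, in the same order. The part of these markers in the conditioning differences below was not tested. In bulk tissue, fewer cells of a type and less RNA per cell cannot be told apart.

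Channel probe sets were taken into the tests by a filter at a mean log2 signal of 7.26, the 40th percentile over all arrays. The filter is not a detection call, and whether a passing signal is specific to its gene was not tested. It was passed by 39 of the 91 probe sets, standing for 36 genes, and 32 genes had no probe set above it. Of the 39, 24 were for pore-forming and 15 for auxiliary subunits. Levels are not ranked between genes, because probe sets differ in how well they bind their transcript.

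Among sodium channels, the neuronal pore subunits Scn1a, Scn2a and Scn3a and the auxiliary subunits Scn3b and Scn4b passed. Scn10a, a pore subunit known mainly from pain-sensing neurons outside the brain, also passed, at a mean log2 signal of 7.77. Whether its probe set read that transcript here was not tested. Scn2b, Scn4a, Scn7a, Scn8a, Scn9a and Scn11a did not pass. Scn8a encodes a pore subunit that is abundant at the axon initial segment, so a probe set below the filter (mean log2 signal 5.50) says nothing about absence of the transcript. Among potassium channels, 15 genes passed. They were the Shaker-type subunits Kcna2 and Kcna4, the Shaw-type subunits Kcnc1, Kcnc2 and Kcnc4 of fast-spiking cells, the A-type subunits Kcnd1, Kcnd2 and Kcnd3, the ether-a-go-go type subunits Kcnh1 and Kcnh3, the M-current subunit Kcnq3, the calcium-activated channel Kcnma1 with its neuronal partner Kcnmb4, and the auxiliary subunits Kcnab1 and Kcnab2. Kcna1, Kcna3, Kcna5, Kcna6, Kcnab3, Kcnb2, Kcnh2, Kcnh4, Kcnh5, Kcnh6, Kcnh7, Kcnh8, Kcnmb1 and Kcnq1 did not pass.

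Among calcium channels, 13 genes passed. They were the pore subunits Cacna1a (P/Q-type), Cacna1b (N-type), Cacna1c (L-type), Cacna1g and Cacna1i (both T-type), the auxiliary subunits Cacna2d1, Cacna2d3, Cacnb1, Cacnb2 and Cacnb3, and Cacng2, Cacng3 and Cacng8, whose proteins are best known as partners of AMPA receptors. Cacna1d, Cacna1e, Cacna1f, Cacna1h, Cacna1s, Cacnb4, Cacng1, Cacng4, Cacng5, Cacng6 and Cacng7 did not pass. The skeletal muscle subunit Cacna1s had a mean log2 signal of 4.00, the floor of the scale. Hcn2 and Hcn3 passed and Hcn4, the subunit of the heart's pacemaker, did not.

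None of the 39 channel probe sets changed in any comparison at an adjusted p under 0.05 (limma, Benjamini-Hochberg over 9520 probe sets). The share of all tested probe sets called at this threshold was 0% in pain minus baseline, 0.0105% (1 probe set) in isoflurane minus baseline, 0% in conditioning minus baseline and 0% in conditioning under isoflurane minus baseline. It was also 0% in conditioning minus pain, in both comparisons of conditioning under isoflurane (with conditioning and with isoflurane), in the interaction of conditioning and isoflurane, and in the F test over the 5 groups.

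At an unadjusted p under 0.05, the count was 7 of 39 channel probe sets (17.9%) after pain, against 8.96% of all probe sets. Of the 7, 2 were higher (4.33% of all probe sets were) and 5 lower (4.63% of all). Without pain replicate 3 the count after pain was 4 (10.3%, against 5.16% of all in that fit). With baseline replicates 6 to 9 as the only baseline arrays it was 9 (23.1%, against 18.5%). After isoflurane the count was 2 (5.13%, against 5.38% of all), after conditioning 2 (5.13%, against 10.1%) and after conditioning under isoflurane 1 (2.56%, against 6.5%). Conditioning minus pain gave 4 (10.3%, against 9.04%), 2 higher (4.74% of all) and 2 lower (4.31% of all). It gave 2 (5.13%, against 7.7% of all) without pain replicate 3, and 8 (20.5%) without pain replicate 1 (11.9% of all) or without pain replicate 4 (10.4% of all). Conditioning under isoflurane gave 0 against conditioning (3.69% of all) and 0 against isoflurane (4% of all), and the interaction gave 0 (4.79% of all). The F test gave 3 (7.69%, against 7.35%). The share after pain was above the background, and the others lay near or below it. The comparisons with baseline share the same 9 arrays and are not independent of each other. The arrays of a pair of groups overlapped for all 39 channel probe sets in 6 of the 7 comparisons. Over all probe sets they did not overlap in 0.116% after pain, 0.137% after isoflurane, 0.116% after conditioning, 0.221% after conditioning under isoflurane, and 0.704% and 0.924% in conditioning under isoflurane against conditioning and against isoflurane. In conditioning minus pain, 1 of 39 (Kcnq3) did not overlap, against 1.13% of all.

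**Figure D1:**
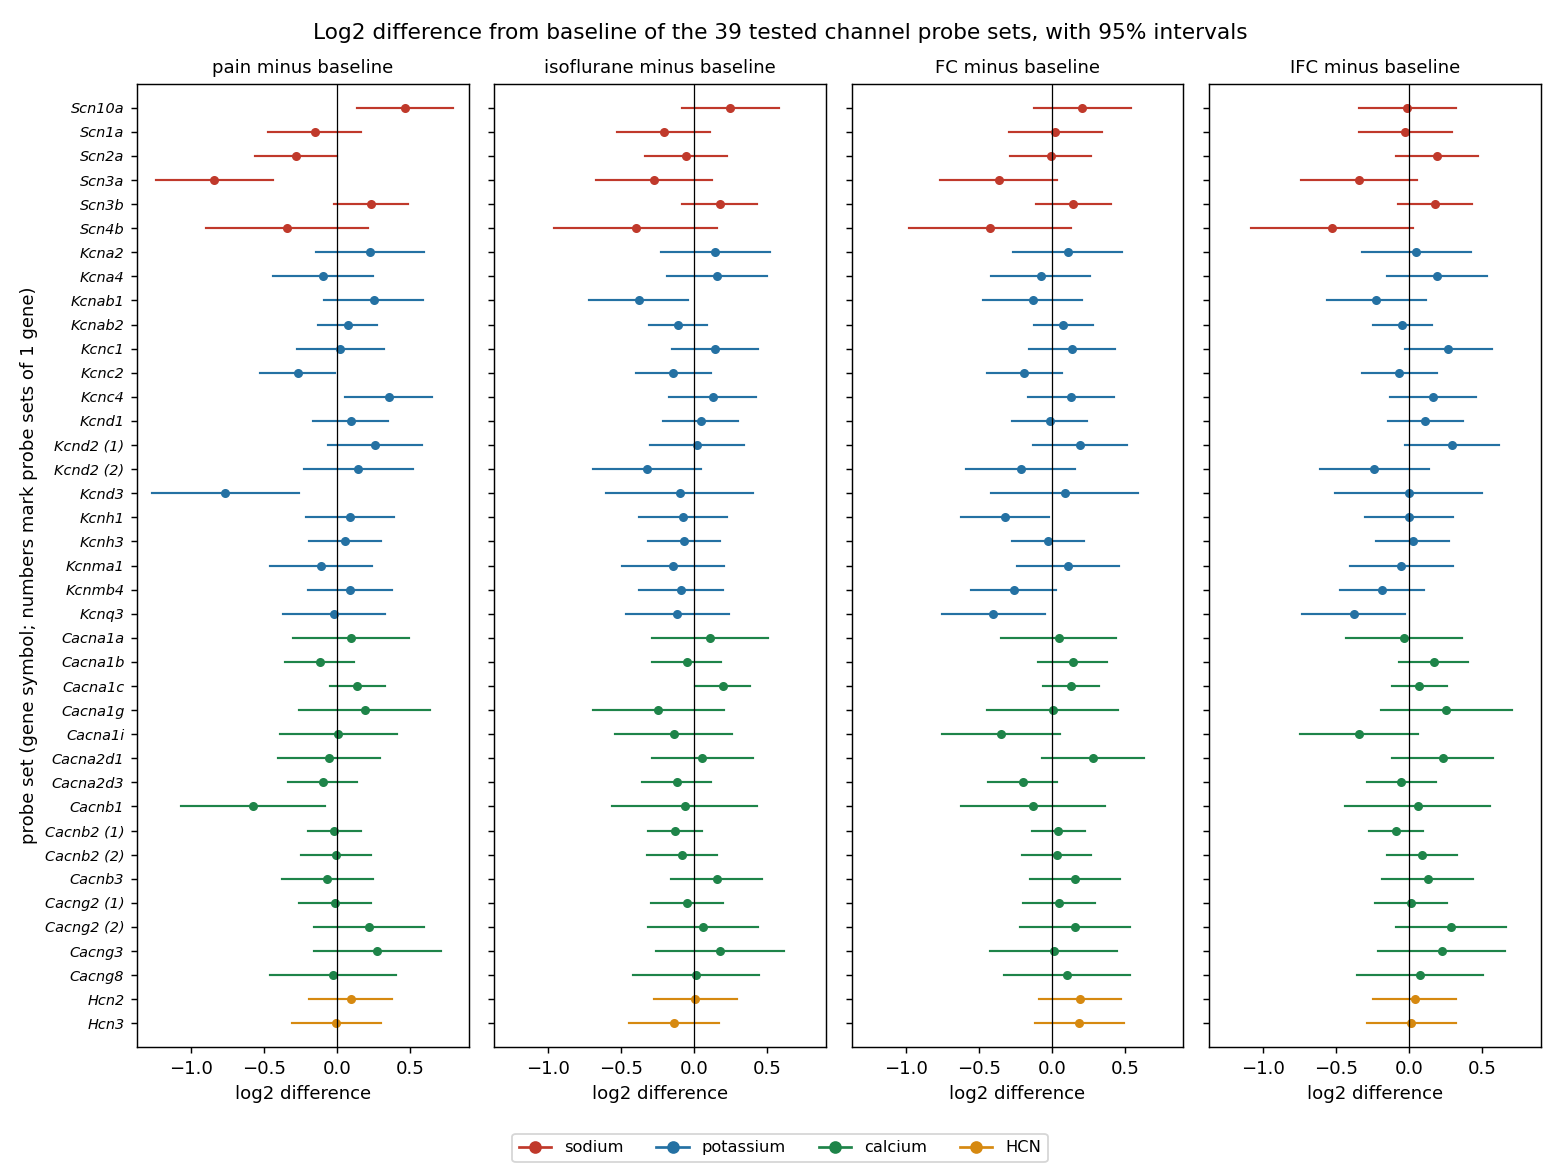
Log2 difference from baseline (x axis) of the 39 tested channel probe sets (y axis, gene symbols) after pain, isoflurane, fear conditioning (FC) and conditioning under isoflurane (IFC), with points for estimates, bars for 95% intervals and colours for families. In the pain panel Scn3a (-0.84), Kcnd3 (-0.76) and Cacnb1 (-0.58) lie farthest to the left, and no probe set passed the adjusted threshold in any panel.

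The precision of these comparisons bounds what was missed among the 39 tested probe sets only. The 32 genes with no probe set above the filter have no interval here. The 95% interval of the log2 difference lay inside -1 to 1 for 36 of 39 channel probe sets after pain, 39 after isoflurane, 39 after conditioning and 38 after conditioning under isoflurane. It lay inside -0.5 to 0.5 for 24, 26, 25 and 23 of them, in the same order. A change of 2-fold was thus outside the interval for most tested members in the comparisons with baseline. A change of 0.5 on the log2 scale was not outside it for many. The interaction was less precise, with 37 of 39 intervals inside -1 to 1 and 9 inside -0.5 to 0.5. In limma without the filter, 11 of 91 channel probe sets (12.1%, against 8.42% of all) had an unadjusted p under 0.05 after pain. The count was 5 (5.49%, against 5.5%) after isoflurane and 5 (5.49%, against 8.4%) after conditioning. After conditioning under isoflurane it was 6 (6.59%, against 6.18%). No channel probe set passed the adjusted threshold in that fit.

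Scn3a, a sodium channel pore subunit that is most abundant in the developing brain, had the lowest p-value of all members. Its log2 signals in the pain arrays were 7.53, 7.52, 6.66, 7.26 and 7.54, against a lowest of 7.27, a median of 8.13 and a highest of 8.89 over the baseline arrays. All 5 pain arrays lay below the baseline mean, and the groups overlapped through baseline replicate 3, the lowest baseline array. The difference from baseline was -0.84 (SE 0.20, 95% interval -1.24 to -0.44, a ratio of 0.559), with an unadjusted p of 0.000168 and an adjusted p of 0.160 by limma. Isoflurane arrays read 7.43, 8.45, 7.64, 8.08 and 7.74, conditioning arrays 7.68, 7.46, 7.95, 7.89 and 7.92, and arrays of conditioning under isoflurane 7.68, 7.78, 8.16, 7.89 and 7.49. Those 3 groups averaged between pain and baseline and overlapped with baseline, at differences of -0.28, -0.36 and -0.34.

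Whether Scn3a passed the threshold turned on the arrays used. Without baseline replicate 3 the difference after pain was -0.95 with an adjusted p of 0.0188 in limma, past the threshold, in a fit that called 6 of 9520 probe sets (0.063%). With baseline replicates 6 to 9 as the only baseline arrays it was -0.94 with an adjusted p of 0.0326, in a fit that called 160 probe sets (1.68%). With baseline replicates 1 to 5 as the only baseline arrays it was -0.75 with an adjusted p of 0.967. Without pain replicate 3, the lowest array, it was -0.69 with an adjusted p of 0.708. Baseline replicate 3 was also the array with the highest striatal score, 1.00, and pain replicate 3 the one with the highest median signal. The part of either in the Scn3a values was not tested.

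Scn10a read 7.98, 7.95, 8.32, 8.06 and 8.10 after pain and from 6.92 through a median of 7.68 to 8.30 in baseline. All 5 pain arrays lay above the baseline mean, overlapping a single baseline array. The difference was 0.47 (SE 0.16, adjusted p 0.434 by limma), and 0.70 with an adjusted p of 0.0371 against baseline replicates 6 to 9 alone. Against baseline replicates 1 to 5 alone it was 0.28 (unadjusted p 0.0976, adjusted p 0.967 by limma), and with the replicate number as a block 0.28 (unadjusted p 0.0881). Scn2a, the pore subunit of excitatory neurons and their axons, read 10.11, 9.94, 9.27, 10.39 and 10.13 after pain, and its baseline arrays lay between 9.99 and 10.60. Its difference was -0.28 (SE 0.14, adjusted p 0.555), and without pain replicate 3 it was -0.11. Pain replicate 3 thus held the lowest Scn2a and Scn3a values and the highest Scn10a value of its group.

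The other sodium channel members had no unadjusted p under 0.05 in any comparison with baseline by limma. Scn1a, the pore subunit on which fast-spiking interneurons depend, averaged 8.83 ± 0.29 (SD, n = 9) in baseline and 8.68 ± 0.10 (n = 5) after pain, 8.62 ± 0.38 after isoflurane, 8.86 ± 0.31 after conditioning and 8.80 ± 0.31 after conditioning under isoflurane. Scn3b averaged 10.20 ± 0.22 in baseline, and its group means reached 10.43 ± 0.15 after pain, farther from baseline than either SD. Scn4b averaged 8.02 ± 0.73 in baseline, the widest baseline spread among the sodium members, and between 7.50 and 7.68 in the treated groups. The median difference of the 6 sodium members was -0.22 after pain, -0.13 after isoflurane, 0.01 after conditioning and -0.02 after conditioning under isoflurane, while the median over all tested probe sets was 0.00 in each of these comparisons. The sodium median was -0.13 after pain without pain replicate 3 and -0.04 after isoflurane without isoflurane replicate 3. After pain it was 0.00 against baseline replicates 6 to 9 alone and -0.02 with a filter at the 70th percentile, and after isoflurane that filter gave 0.06.

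**Figure D2:**
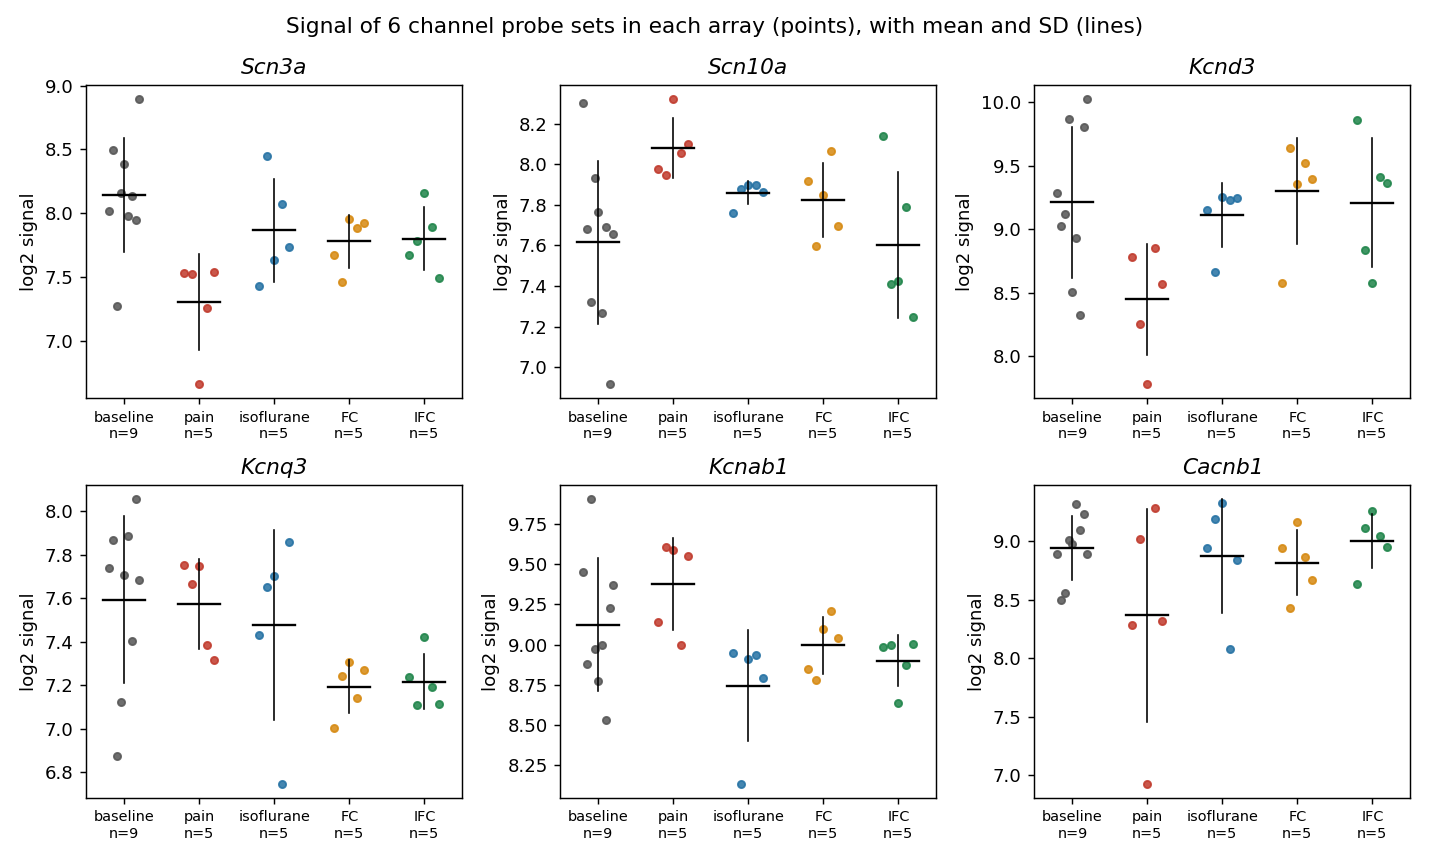
Log2 signal (y axis) of Scn3a, Scn10a, Kcnd3, Kcnq3, Kcnab1 and Cacnb1 in every array (points) of the 5 groups (x axis, with n), where FC is fear conditioning and IFC conditioning under isoflurane, with the mean and SD as lines. The 5 pain arrays of Scn3a sit between 6.66 and 7.54, and the lowest baseline array, 7.27, falls among them.

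Kcnd3, a pore subunit of the A-type current that delays firing, was the potassium channel member with the lowest p-value after pain. It read 8.78, 8.25, 7.78, 8.85 and 8.57 in the pain arrays and from 8.33 through a median of 9.12 to 10.02 in baseline. All pain arrays lay below the baseline mean, and 3 of the 5 lay inside the baseline range. The difference was -0.76 (SE 0.25, 95% interval -1.27 to -0.26), with an adjusted p of 0.404 by limma. The conditioning arrays read 8.58, 9.64, 9.36, 9.53 and 9.40, 4 of them above every pain array. Conditioning minus pain was 0.85 (SE 0.28, 95% interval 0.28 to 1.42, adjusted p 0.451 by limma). Conditioning includes pain as a component, and the mean of the conditioning group, 9.30 ± 0.42, differed from that of baseline, 9.21 ± 0.60, by less than either spread.

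The second Kcnd3 probe set, with a mean log2 signal of 5.64, lay below the filter. With both probe sets averaged, the Kcnd3 difference after pain was -0.16 with an unadjusted p of 0.593 in limma, and conditioning minus pain was 0.24, so the values above rest on a single probe set. Without pain replicate 3, again the lowest array, the single probe set gave -0.60. Kcnd2, the other main A-type subunit, had 2 probe sets above the filter. They differed from baseline by 0.26 and 0.14 after pain, by 0.02 and -0.32 after isoflurane, by 0.19 and -0.21 after conditioning and by 0.29 and -0.24 after conditioning under isoflurane. The pair pointed the same way after pain and opposite ways after the other treatments, none past the threshold.

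Kcnq3 forms the M-current, a slow potassium current that damps repetitive firing and is suppressed by acetylcholine. It read 7.00, 7.24, 7.31, 7.14 and 7.27 after conditioning and 7.24, 7.11, 7.42, 7.19 and 7.11 after conditioning under isoflurane. Baseline ran from 6.88 through a median of 7.71 to 8.06, and the pain arrays read 7.75, 7.67, 7.75, 7.38 and 7.32. Both conditioned groups clustered in the lower part of the baseline range. The differences from baseline were -0.40 (SE 0.17, adjusted p 0.461 by limma) after conditioning and -0.38 (SE 0.17, adjusted p 0.743) after conditioning under isoflurane. Against baseline replicates 1 to 5 alone they were -0.27 (unadjusted p 0.176) and -0.24 (unadjusted p 0.212), and the block on replicate number gave -0.25 after conditioning under isoflurane. Against pain, conditioning differed by -0.38 (SE 0.20, adjusted p 0.555). In this comparison Kcnq3 was the 1 channel probe set of 39 whose groups did not overlap in the lower direction, where 0.62% of all probe sets did not, and the gap between the highest conditioning array and the lowest pain array was narrow. The second Kcnq3 probe set lay below the filter, at a mean of 6.49, and pointed the other way after conditioning. It averaged 6.48 ± 0.67 in baseline, 6.50 ± 0.64 after pain and 6.78 ± 0.35 after conditioning. After conditioning under isoflurane it averaged 6.41 ± 0.48. The Kcnq3 differences above thus rest on a single probe set.

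Kcnh1, an ether-a-go-go type pore subunit, read 8.11, 7.49, 8.18, 8.20 and 8.01 after conditioning and from 7.93 through 8.22 to 8.71 in baseline. All 5 conditioning arrays lay below the baseline mean and overlapped the baseline range. The difference was -0.32 (SE 0.15, adjusted p 0.485 by limma), and without conditioning replicate 2 it was -0.19. Against baseline replicates 1 to 5 alone it was -0.18, against baseline replicates 6 to 9 alone -0.49 (adjusted p 0.138), and with the block -0.18. Conditioning under isoflurane averaged 8.32 ± 0.23 against a baseline of 8.32 ± 0.28. Kcnmb4, the neuronal auxiliary subunit of the large-conductance channel, read 10.23, 10.15, 10.31, 10.04 and 10.10 after conditioning and 10.25, 10.16, 10.73, 10.66 and 10.78 after pain. These groups overlapped, at a difference of -0.35 (SE 0.16, adjusted p 0.532). Its pore partner Kcnma1 averaged 8.78 ± 0.11 after conditioning and 8.56 ± 0.33 after pain.

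Kcnab1, an auxiliary subunit that speeds inactivation of Shaker-type channels, was the potassium member with the lowest p-value after isoflurane. It read 8.95, 8.14, 8.91, 8.93 and 8.79 there and from 8.53 through a median of 9.00 to 9.91 in baseline. Each isoflurane array was under the mean of baseline, and 4 of the 5 lay inside its range. The difference was -0.38 (SE 0.17, adjusted p 0.922 by limma), and without isoflurane replicate 2, the lowest array, it was -0.23 (unadjusted p 0.179). The pain arrays read 9.14, 9.61, 9.59, 9.00 and 9.55, at a difference from baseline of 0.25 (SE 0.17). The pain and isoflurane groups thus lay on opposite sides of the baseline mean, neither past the threshold.

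The Shaw-type subunits differed in direction after pain. Kcnc4 read 9.93, 9.49, 10.01, 9.89 and 10.20 after pain and from 8.92 through 9.61 to 10.17 in baseline, with overlap, at a difference of 0.35 (SE 0.15, adjusted p 0.492 by limma), and of 0.21 with arrays centred on their medians. Kcnc2, a subunit of parvalbumin interneurons, read 9.09, 9.02, 8.62, 9.23 and 9.30, against 9.06 to 9.73 in baseline, at a difference of -0.27 (SE 0.13, adjusted p 0.528), and of -0.16 (unadjusted p 0.212) without pain replicate 3, the lowest array. Only 1 of 6 Kcnc2 probe sets passed the filter. Over the 16 potassium probe sets, the median difference was 0.08 after pain (11 higher, 5 lower), -0.08 after isoflurane, -0.02 after conditioning and 0.00 after conditioning under isoflurane. The median after pain was -0.02 with arrays centred on their medians, where that of all probe sets was -0.11, and the one after isoflurane was 0.04 with the probe sets of a gene averaged.

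The remaining potassium members past the filter varied little between groups. Kcna2, a Shaker-type subunit of axons, averaged 7.41 ± 0.40 (SD, n = 9) in baseline and from 7.46 to 7.64 in the treated groups, with 5 arrays each. Kcna4, an inactivating subunit of the same type, averaged 7.87 ± 0.24 in baseline, 7.77 ± 0.39 after pain, 8.02 ± 0.23 after isoflurane, 7.79 ± 0.37 after conditioning and 8.06 ± 0.32 after conditioning under isoflurane. Its means were higher in both groups that received isoflurane and lower in those without it, by amounts inside the spread. Kcnc1, a Shaw-type subunit of fast-spiking cells, averaged 8.68 ± 0.30 in baseline and 8.95 ± 0.17 after conditioning under isoflurane, a difference of 0.27 (SE 0.14). Kcnd1, Kcnh3 and Kcnab2 differed from baseline by between -0.11 and 0.11 in every comparison with it. Kcnab2, the commonest partner of Shaker-type channels in brain, averaged 10.41 ± 0.13 in baseline and between 10.30 and 10.49 in the treated groups. Kcna1, below the filter (mean log2 signal 6.68) and so not among the tested probe sets, varied more. Its means were 6.11 ± 0.82 in baseline, 6.78 ± 0.55 after pain and 6.11 ± 1.09 after isoflurane. They were 7.35 ± 1.00 after conditioning and 7.53 ± 0.47 after conditioning under isoflurane. Arrays of the last group read 6.97 to 7.98 and those of baseline 4.64 to 6.99, with overlap.

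The 15 calcium channel probe sets had median differences close to 0, at -0.01 after pain, -0.05 after isoflurane, 0.05 after conditioning and 0.08 after conditioning under isoflurane. Against baseline replicates 6 to 9 alone they were 0.10 after pain, 0.08 after isoflurane and 0.22 after conditioning, and without isoflurane replicate 3 the one after isoflurane was 0.08. Cacnb1, an auxiliary subunit that brings pore subunits to the membrane, read 8.28, 9.02, 6.93, 9.28 and 8.32 after pain and from 8.50 through 8.98 to 9.32 in baseline. The pain arrays split, with 2 above the baseline mean, 2 just under the baseline range and pain replicate 3 far below. The difference was -0.58 (SE 0.24, adjusted p 0.499 by limma), and -0.22 without pain replicate 3. Cacna1c, the L-type pore subunit that signals to the nucleus, read 8.49, 8.53, 8.30, 8.64 and 8.46 after isoflurane and 8.05 to 8.50 in baseline. All 5 lay above the baseline mean, at a difference of 0.19 (SE 0.09, adjusted p 0.922), a ratio of 1.14.

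Cacna1b, the N-type subunit of presynaptic terminals, averaged 9.11 ± 0.22 in baseline, 8.99 ± 0.17 after pain, 9.05 ± 0.30 after isoflurane, 9.25 ± 0.11 after conditioning and 9.28 ± 0.17 after conditioning under isoflurane. It was among the 8 members with the lowest F test p-values, all with an adjusted p between 0.674 and 0.709 in limma. The others were Scn3a (unadjusted p 0.00478), Kcnab1 (0.0232), Kcnd3 (0.0266), Scn10a, Scn2a, Kcnq3 and 1 probe set of Kcnd2. Of the T-type subunits, which drive burst firing, Cacna1i differed from baseline by -0.35 (SE 0.20) after conditioning. After conditioning under isoflurane it differed by -0.34 (SE 0.20). Cacna1g differed by 0.01 and 0.26, in the same order. Neither gene had an unadjusted p under 0.05 by limma in these comparisons. The second Cacna1i probe set lay below the filter, at a mean log2 signal of 4.90. Cacna1g averaged 7.16 ± 0.48 after isoflurane and 7.66 ± 0.34 after conditioning under isoflurane, a difference of 0.50 (SE 0.25, adjusted p 0.998), the lowest p-value of any member in that comparison.

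Among the other calcium channel members, Cacna1a, the P/Q-type subunit that drives fast transmitter release, averaged 7.39 ± 0.38 in baseline and from 7.36 to 7.50 in the treated groups. Cacna2d1, the auxiliary subunit bound by gabapentin, averaged 9.28 ± 0.29 in baseline, 9.23 ± 0.48 after pain, 9.34 ± 0.26 after isoflurane, 9.57 ± 0.32 after conditioning and 9.52 ± 0.26 after conditioning under isoflurane. It was highest in both conditioned groups, at differences from baseline of 0.28 and 0.23 (SE 0.17 each) that did not pass the threshold. Cacna2d3 pointed the other way after conditioning, at -0.20 (SE 0.11). The 2 Cacnb2 probe sets averaged 9.10 ± 0.14 and 8.09 ± 0.17 in baseline and differed from it by -0.02 and -0.01 after pain, -0.13 and -0.08 after isoflurane, 0.05 and 0.03 after conditioning and -0.09 and 0.09 after conditioning under isoflurane. Cacnb3 averaged 10.01 ± 0.30 in baseline and from 9.95 to 10.17 in the treated groups, and Cacng8 averaged 7.53 ± 0.46 and from 7.50 to 7.63. These ranges lay well inside the spread between baseline arrays.

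Cacng3 averaged 9.49 ± 0.47 in baseline and between 9.50 and 9.77 in the treated groups. The 2 probe sets of Cacng2, also known as stargazin, differed from baseline by -0.01 and 0.22 after pain and by 0.02 and 0.29 after conditioning under isoflurane. Of the HCN subunits, Hcn2 averaged 9.45 ± 0.31 in baseline and 9.65 ± 0.23 after conditioning, a difference of 0.19 (SE 0.14, adjusted p 0.646 by limma). Hcn3 averaged 7.71 ± 0.16 and 7.90 ± 0.25, also a difference of 0.19 (SE 0.15). The HCN arrays of the groups overlapped throughout.

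**Figure D3:**
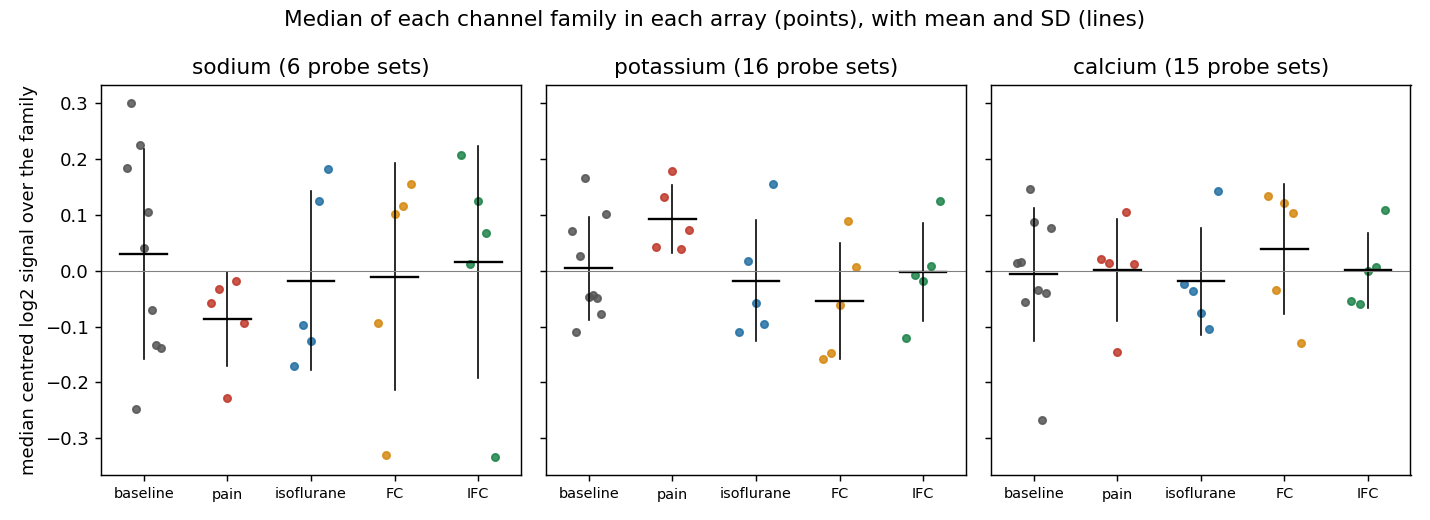
Median over the tested probe sets of each family, after centring each probe set on its mean log2 signal over the 29 arrays (y axis), for every array (points) in the 5 groups (x axis; FC fear conditioning, IFC conditioning under isoflurane), with the mean and SD as lines. The 5 pain arrays lie between 0.04 and 0.18 in the potassium panel and between -0.23 and -0.02 in the sodium panel, and both ranges fall inside or overlap those of baseline.

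The interaction asked whether the effect of conditioning differed with and without isoflurane. Its lowest p-values among channels belonged to Scn10a (-0.47, SE 0.25), Cacna1c (-0.26, SE 0.14) and Kcnh1 (0.40, SE 0.22), each with an adjusted p of 0.959 by limma. The 3 genes come from 3 families. In the comparison of conditioning under isoflurane with conditioning the lowest p-value was that of Kcnh1, at 0.32 (SE 0.17, 95% interval -0.02 to 0.66).

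Channels and partners that the name rule does not take were read from a fixed list of 64 symbols. It covers inward-rectifier, two-pore and calcium-activated potassium channels, silent and A-type auxiliary subunits, and proteins that anchor channels at the axon initial segment and node. Of these, 54 were on the array with 82 probe sets, and 39 probe sets (30 genes) passed the filter. None was called in any comparison. At an unadjusted p under 0.05, 3 were higher and 3 lower after pain (15.4% in all, against 8.96% of all probe sets), 2 and 1 after isoflurane (7.69%, against 5.38%), 2 and 4 after conditioning (15.4%, against 10.1%) and 1 and 1 after conditioning under isoflurane (5.13%, against 6.5%). Conditioning minus pain gave 4 and 4 (20.5%, against 9.04%). Conditioning under isoflurane gave 1 and 0 against conditioning (2.56%, against 3.69%) and 1 and 2 against isoflurane (7.69%, against 4%), and the interaction gave 1 and 1 (5.13%, against 4.79%). The F test gave 7 of 39 (17.9%, against 7.35%). Kcnj3, a subunit of the G-protein-gated inward rectifier, differed by 0.58 (SE 0.22, adjusted p 0.473 by limma) after pain. Ank3, which encodes the ankyrin that clusters sodium channels at the initial segment, differed by 0.36 (SE 0.12, adjusted p 0.415) after conditioning and by 0.41 (SE 0.14, adjusted p 0.463) between conditioning and pain. Kcnip4, a partner of A-type channels, differed by -0.69 (SE 0.24, adjusted p 0.463) in the latter comparison.

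The channel probe sets also varied within groups. The median residual SD was 0.29 over the 39 members and 0.23 over all tested probe sets, with 0.29 for sodium, 0.29 for potassium, 0.33 for calcium and 0.26 for HCN members. The 5 widest were Scn4b (0.53), Kcnd3 (0.48), Cacnb1 (0.47), Cacng3 (0.42) and Cacna1g (0.41), and the narrowest was Cacna1c (0.14). These 5 were set against marker scores of striatum, oligodendrocytes and excitatory projection neurons, 15 relations in all, after removing group means.

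Scn4b, an auxiliary sodium channel subunit that is abundant in striatal neurons, followed the striatal score over the 29 arrays, with Pearson's r of 0.79 (permutation p 1e-05, the smallest that 100000 permutations can give, adjusted p 0.00015) and Spearman's rho of 0.75 (permutation p 2e-05). Without the 2 arrays farthest from the median score r was 0.65, and within the 9 baseline arrays it was 0.93. Baseline replicate 3 held both the highest score and the highest Scn4b signal, 9.66. Scn4b was not among the 6 genes of the score. The differences of Scn4b from baseline were -0.34 after pain, -0.40 after isoflurane, -0.42 after conditioning and -0.52 after conditioning under isoflurane, none past the threshold. Without baseline replicate 3 they were -0.14, -0.20, -0.21 and -0.32.

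Cacna1g followed the striatal score more weakly, with r of 0.50 (permutation p 0.00545, adjusted p 0.0409), rho of 0.50 (permutation p 0.00632, adjusted p 0.0316), 0.53 without the 2 farthest arrays and 0.43 within baseline. Cacng3 and the excitatory projection neuron score gave r of 0.47 (permutation p 0.0116, adjusted p 0.058) and rho of 0.51 (permutation p 0.00556, adjusted p 0.0316). Kcnd3 gave r of 0.00 with the striatal score, and Cacnb1 r of -0.39 with the oligodendrocyte score (permutation p 0.0338, adjusted p 0.127). The remaining relations did not pass the adjusted threshold.

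**Figure D4:**
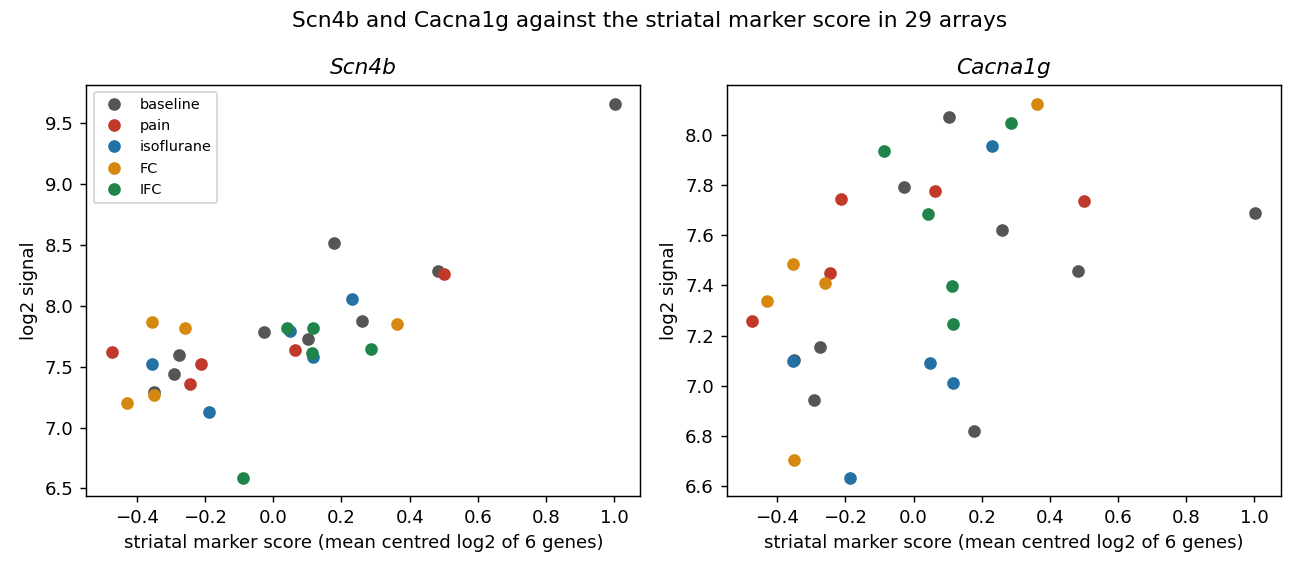
Log2 signal (y axis) of Scn4b and Cacna1g against the striatal marker score (x axis, mean centred log2 signal of 6 striatal genes) in the 29 arrays, coloured by group (FC fear conditioning, IFC conditioning under isoflurane). The baseline array at a score of 1.00 has the highest Scn4b signal, 9.66, and the Cacna1g points scatter more widely.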

How the data were processed

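Measured were 29 one-colour rat arrays, 1 per sample of basolateral amygdala. The deposited values are linear intensity, which had been scaled array by array before deposit, judging from the values. Trimmed of 2% of non-control probe sets at either end, their means lay between 498.2 and 499.0. Which software and genome build made them is not given in the sources used here. The table held 15923 probe sets, of which 57 control probe sets were left out.

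After quantile normalization across arrays, signals under 16 were set to 16 and log2 was taken. The 9520 probe sets with a mean at or above the 40th percentile were fitted with limma 3.58.1 (R 4.3.3; lmFit, then eBayes with an intensity trend), all 29 arrays together with a mean for each group. Tests were 7 contrasts between pairs of groups, an interaction and an F test, with Benjamini-Hochberg adjustment over all 9520 and a threshold of 0.05. All 91 channel probe sets were matched by gene identifier to a table of current rat genes (GRCr8), and 0 symbols differed. On data simulated for pain minus baseline, 100 changes of 1 and 100 of 0.5 on the log2 scale were planted at random among all 9520 probe sets. Of those of 1, 95% were recovered, and of those of 0.5, 64%, with 8 false calls. The measured comparison called 0 probe sets. Channel probe sets varied more within groups (median residual SD 0.29 against 0.23 over all). These shares are therefore not a recovery rate for channels, which was not simulated.

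Named genes are, per contrast, up to 5 higher and 5 lower members with the lowest unadjusted p under 0.05, the 8 lowest in the F test, the 5 with the largest residual SD, and the principal brain subunits. Partner genes named are among the 3 with the lowest p in a contrast. Kcnd1, Kcnh3, the members named for the lowest p in a contrast without such a call and the Cacng3 promoter were added after their values were seen. The members and lists were chosen with earlier results of these data known. Marker scores are means of centred log2 signals. Replicate numbers were checked for pairing over 50 same-numbered pairs of arrays. The correlation of their deviations ranged from -0.24 to 0.26 and exceeded 0.1 in 12. Pairs with different numbers were not set beside them, so the check cannot decide whether the numbers pair arrays. The labels do not say that they do. Alternatives covered the scaling, filter, floor, trend, samples fitted, replicate block, baseline subsets, averaging of probe sets and each array left out.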

Additional observations from a re-analysis of the deposited data

Results flagged for a closer look

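Among the 14 named probe sets, 70 sets of 5 arrays or of the 9 baseline arrays were checked for a single array far from its group, and 6 arrays stood apart, where chance alone gives about 1 in 20 sets. All 6 were the lowest array of a treated group of 5. In the isoflurane group these were replicate 1 for Scn10a (7.76, the nearest array at 7.86), replicate 2 for Kcnd3 (8.66, nearest 9.15), replicate 2 for Kcnab1 (8.14, nearest 8.79) and replicate 3 for Cacna1b (8.53, nearest 9.08). In the fear conditioning group they were replicate 1 for Kcnd3 (8.58, nearest 9.36) and replicate 2 for Kcnh1 (7.49, nearest 8.01). Pain replicate 3, the lowest pain array for Scn3a, Scn2a, Kcnd3 and Cacnb1, did not stand apart by this measure in any of them.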

How the results depend on the processing

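Of 1230 recomputed values for the 50 main results, 1211 kept their side of the threshold or moved by less than the spread between arrays, and 19 moved. The results include 32 family medians, which carry no test. Of their 768 recomputed values, 78 changed sign, 9 of these among the 19 that moved and 69 by less than the spread, and 20 of the 32 medians changed sign at least once. With baseline replicates 6 to 9 alone, 2 channel probe sets were called after pain (Scn3a and Scn10a), and partner genes called numbered 1 after pain (1.68% of all probe sets were called in that fit), 1 after isoflurane (0.305% of all) and 2 after conditioning (1.16% of all). With baseline replicates 1 to 5 alone no channel was called. Leaving out each array in turn gave 0 to 1 channel calls after pain, the 1 being Scn3a without baseline replicate 3. Baseline replicates 6 to 9 alone also moved the sodium median to 0.0013 after pain and -0.020 in the interaction, and the calcium median to 0.10 after pain, 0.083 after isoflurane and 0.22 after conditioning. A filter at the 70th percentile moved the sodium median to -0.024 after pain, 0.059 after isoflurane and 0.18 after conditioning under isoflurane, and the calcium median to 0.15 in conditioning minus pain. Averaging probe sets of a gene moved the potassium median to 0.043 after isoflurane and the calcium median to 0.15 in conditioning under isoflurane minus conditioning. Centring arrays on their medians moved the potassium median after pain to -0.023, where the median of all probe sets was -0.11. Counts of channels at an unadjusted p under 0.05 ranged with single arrays left out from 4 to 8 after pain, 1 to 3 after isoflurane, 0 to 3 after conditioning or conditioning under isoflurane, and 2 to 8 in conditioning minus pain. The calcium median after isoflurane ranged from -0.058 to 0.078 with single arrays left out. The replicate block gave 0 channel calls and 0 partner calls in every comparison and moved the calcium median in the interaction to 0.13. The cause was not tested. The F test has no version fitted on 2 groups, and alternatives that leave a comparison's own arrays untouched were not counted. Signals below the filter, and 5 arrays per group, limit what could be seen.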
